A study of Mus musculus with 6 samples.

Results

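The interferon receptor chains and Janus kinases comprised 7 genes, chosen by name: the type II receptor chains Ifngr1 and Ifngr2, the type I receptor chains Ifnar1 and Ifnar2, and the kinases Jak1, Jak2 and Tyk2. All 7 had a row in each table, of 14701 genes in all, and all 7 had enough reads to be tested. RNA was sequenced from IEC 4.1, a mouse line labelled as intestinal epithelium, in 6 samples. The control group, replicates 2, 3 and 4, received no interferon-gamma, and the treated group, replicates 1, 2 and 4, received 10 ng/ml for 6 h. The labels name no genotype and no further agent. They do not say whether replicates came from separate cultures, so p-values measure the spread between these samples, which may be technical.

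Interferon-gamma binds a receptor of IFNGR1, the main ligand-binding chain, and IFNGR2. JAK1 sits on the IFNGR1 tail and JAK2 on the IFNGR2 tail, and the activated kinases create a docking site for STAT transcription factors. Type I interferons bind IFNAR2 with high affinity and IFNAR1 with low affinity, and these chains carry JAK1 and TYK2. The question was how the genes for these chains and kinases stood in cells already given interferon-gamma.

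Libraries held 17490689 to 18678543 estimated counts. All 7 genes listed as known targets of interferon-gamma rose in the treated libraries, with a median log2 fold change of 5.37. Of 12 epithelial markers, 8 had a row and all 8 were too low to test. On total counts, their summed level was 0.702 to 0.93 CPM in controls and 0.4 to 0.642 CPM in treated libraries. The sums of the other marker lists are likewise CPM on total counts. Other CPM values are counts scaled to the effective library size, unless total counts are named. Epcam, Cldn3, Cdx2 and Elf3 had no row. The summed level of the mesenchymal markers was 5270 to 5450 CPM in controls and 4910 to 5280 CPM after treatment, and of 7 tested 2 rose (Vim and Dcn) and 5 fell. For comparison, 19.9% of all tested genes rose and 18.1% fell at the threshold given below. Leukocyte markers summed to 22.9 to 26 and 19.6 to 21.2 CPM, with Cd3e and Itgam without a row and neither of 2 tested called. Cd14 made up most of that sum, with means of 21.7 and 19.3 CPM by effective library size. Ptprc and Lyz2 were too low to test. Endothelial markers summed to 0.218 to 0.27 and 0.218 to 0.515 CPM. The label of intestinal epithelium was thus not matched by its defining markers in any library. In bulk RNA, fewer cells of a type and less RNA per cell cannot be told apart. The part of these markers in the changes of the 7 genes was not tested.

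The chains and kinases did not move together. Ifnar2 rose 2.16-fold, Jak2 rose 1.37-fold and Jak1 rose 1.13-fold with interferon-gamma. Ifngr1, Ifngr2 and Tyk2 fell by 15.6%, 20.5% and 15.4%. Ifnar1 was at 0.929 of its control level and did not pass the test. Thus 3 of the 7 rose, 3 fell and 1 was not called by edgeR's quasi-likelihood test at an adjusted p under 0.05 over all 11423 genes tested. Of all genes tested 38.1% were called, 19.9% as risen and 18.1% as fallen. The median log2 fold change was -0.11 over the 7 genes and 0.01 over all tested genes. The balance of calls depended on scaling: 2278 genes rose and 2069 fell with TMM factors, 1775 rose and 2823 fell with upper-quartile factors, and 1644 rose and 3124 fell on total counts. With either of these last scalings 2 of the 7 genes were called as risen and 4 as fallen.

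Promoter sequences are shown for 4 of the genes: Ifnar2 and Jak2, with the larger rises, and Ifnar1 and Ifngr2, which share a gene cluster with Ifnar2 but did not rise. Each is the 300 bases from 250 before the annotated start, from RefSeq on GRCm38.p6. Capitals mark TTCNNNGAA, the gamma-activated sequence bound by STAT dimers, which reads the same on either strand.
Ifnar2: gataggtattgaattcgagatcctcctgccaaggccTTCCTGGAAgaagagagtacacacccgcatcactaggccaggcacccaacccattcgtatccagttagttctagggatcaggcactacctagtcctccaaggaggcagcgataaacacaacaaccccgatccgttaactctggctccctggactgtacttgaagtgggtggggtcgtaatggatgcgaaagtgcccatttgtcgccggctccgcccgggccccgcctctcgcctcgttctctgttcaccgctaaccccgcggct
Jak2: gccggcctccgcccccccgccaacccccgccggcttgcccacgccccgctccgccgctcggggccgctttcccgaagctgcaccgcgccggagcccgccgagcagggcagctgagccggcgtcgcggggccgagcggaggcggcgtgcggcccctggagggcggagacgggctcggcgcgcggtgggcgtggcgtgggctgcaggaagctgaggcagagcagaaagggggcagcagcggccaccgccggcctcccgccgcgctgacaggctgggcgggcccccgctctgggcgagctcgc
Ifnar1: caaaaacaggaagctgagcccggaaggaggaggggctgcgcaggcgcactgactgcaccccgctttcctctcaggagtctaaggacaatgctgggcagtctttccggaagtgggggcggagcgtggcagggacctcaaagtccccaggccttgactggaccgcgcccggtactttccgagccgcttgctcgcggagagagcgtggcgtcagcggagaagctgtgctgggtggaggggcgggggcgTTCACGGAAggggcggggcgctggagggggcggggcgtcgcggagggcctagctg
Ifngr2: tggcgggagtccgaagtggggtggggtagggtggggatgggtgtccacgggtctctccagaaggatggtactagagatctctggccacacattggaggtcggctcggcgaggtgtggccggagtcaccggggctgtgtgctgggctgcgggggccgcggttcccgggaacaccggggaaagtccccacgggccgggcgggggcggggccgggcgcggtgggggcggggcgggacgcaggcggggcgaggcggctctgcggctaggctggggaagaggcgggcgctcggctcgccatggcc
These windows lie on the + strand at chr16:91372533-91372832 (Ifnar2), chr19:29251553-29251852 (Jak2), chr16:91484965-91485264 (Ifnar1) and chr16:91546809-91547108 (Ifngr2). For Ifnar1 the start used lies inside the gene's annotated span, so its window covers the first part of that span. The table also held a window for Ifngr1, Jak1 and Tyk2.

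The Ifnar2 window held TTCCTGGAA, beginning 214 bases before the start, and the Ifnar1 window held TTCACGGAA, beginning 5 bases before the start. None of the other 5 windows held that motif. No window of the 7 held the core of the interferon-stimulated response element on either strand, searched as GAAA, any 2 bases and GAAA again; its GAA can share bases with the first motif. Among all 32851 promoter windows of that length, TTCNNNGAA was found in 8.3% and the response element core in 3.44%. The motif was therefore present beside a gene that rose (Ifnar2) and beside a gene that was not called (Ifnar1), and absent from the window of Jak2, which rose. GC content ran from 57% in the Ifnar2 window to 81% in the Jak2 window.

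Ifngr1 (NCBI Gene 15979, chromosome 10, 19591949 to 19610229) encodes the chain that captures interferon-gamma. It was at 69.4, 62.7 and 65.2 CPM in control replicates 2, 3 and 4 and at 52.1, 54.3 and 60.2 CPM in treated replicates 1, 2 and 4. The highest treated library lay just under the lowest control library, so the groups did not overlap. Separation without overlap, in either direction, was seen in all 7 genes and in 48% of all tested genes. The means were 65.8 ± 3.44 and 55.5 ± 4.21 CPM (SD, n = 3 per group), a log2 fold change of -0.24 ± 0.076 (SE between replicates, adjusted p = 0.00444).

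Ifngr2 (NCBI Gene 15980, chromosome 16, 91547059 to 91564007) encodes the chain that brings JAK2 to the complex. Its control libraries held 102, 96.1 and 94.4 CPM and its treated libraries 79.5, 76.1 and 76.5 CPM. The groups stood further apart than for Ifngr1, with a tighter spread among treated libraries. The means were 97.4 ± 3.7 and 77.4 ± 1.9 CPM (SD, n = 3 per group), and the log2 fold change was -0.33 ± 0.037 (adjusted p = 3.87e-05). Both type II chains kept their call under all 16 alternative settings, with log2 values of -0.35 to -0.20 for Ifngr1 and -0.44 to -0.30 for Ifngr2.

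Ifnar1 (NCBI Gene 15975, chromosome 16, 91485032 to 91510523) encodes the TYK2-binding chain of the type I receptor. It was at 81.4, 78.5 and 85.8 CPM in controls and at 77.9, 75.1 and 75.3 CPM in treated libraries. Every treated library was below every control library, but the gap between control replicate 3 and treated replicate 1 was under 1 CPM. The log2 fold change was -0.11 ± 0.041 (adjusted p = 0.139), with a limma-voom 95% interval of -0.22 to 0.01. Ifnar1 passed the threshold as fallen with upper-quartile scaling (log2 -0.16, adjusted p = 0.0251), on total counts (-0.18, 0.0152) and on the deposited TPM (-0.21, 0.0478).

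Ifnar2 (NCBI Gene 15976, chromosome 16, 91372783 to 91405589) encodes the high-affinity chain of the type I receptor, and was the member with the largest change. Its control libraries held 50.9, 49.7 and 43.9 CPM, from 958, 933 and 833 counts. Its treated libraries held 103, 102 and 109 CPM, from 1847, 1845 and 1848 counts. The lowest treated library was about double the highest control library. The means were 48.2 ± 3.74 and 104 ± 3.87 CPM (SD, n = 3 per group), a log2 fold change of 1.11 ± 0.073 (adjusted p = 3.22e-12). At least 2-fold rises past the threshold made up 4.03% of all tested genes. The call held under all 16 alternatives, with log2 values of 0.98 to 1.16.

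Jak1 (NCBI Gene 16451, chromosome 4, 101151974 to 101265282) encodes the kinase used by both receptors. Control libraries held 243, 250 and 231 CPM and treated libraries 272, 263 and 281 CPM, without overlap. The log2 fold change was 0.17 ± 0.043 (adjusted p = 0.0105, n = 3 per group by edgeR). The call was lost without control replicate 4 (log2 0.13, adjusted p = 0.106), with upper-quartile scaling (0.12, 0.0677), on total counts (0.10, 0.117) and on the deposited TPM (0.06, 0.451).

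Jak2 (NCBI Gene 16452, chromosome 19, 29251803 to 29313095) encodes the kinase carried by IFNGR2. Control libraries held 112, 115 and 108 CPM and treated libraries 155, 144 and 157 CPM. The means were 111 ± 3.58 and 152 ± 7.22 CPM (SD, n = 3 per group), and the groups were well separated. The log2 fold change was 0.45 ± 0.048 (adjusted p = 6.16e-07). It was called under all 16 alternatives, at 0.35 to 0.49.

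Tyk2 (NCBI Gene 54721, chromosome 9, 21104068 to 21131393) encodes the kinase carried by IFNAR1, and had the fewest reads of the 7 genes. It held 24.6, 23.3 and 22.8 CPM in controls and 21.5, 20.6 and 17.6 CPM in treated libraries, from 299 to 463 counts. The groups did not overlap, and treated replicate 4 was the lowest library. The log2 fold change was -0.24 ± 0.094 (adjusted p = 0.0227). Leaving out treated replicate 4 gave log2 -0.16 (adjusted p = 0.123) and leaving out control replicate 2 gave -0.21 (0.0765), and each ended the call. In the GENCODE M21 annotation an antisense gene, 1700084C06Rik, overlaps 24326 bases of Tyk2 on the other strand. That overlap is of whole gene spans, introns included. No source used here says whether counting used strand, so reads in shared stretches of the 2 genes cannot be told apart.

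**Figure D1:**
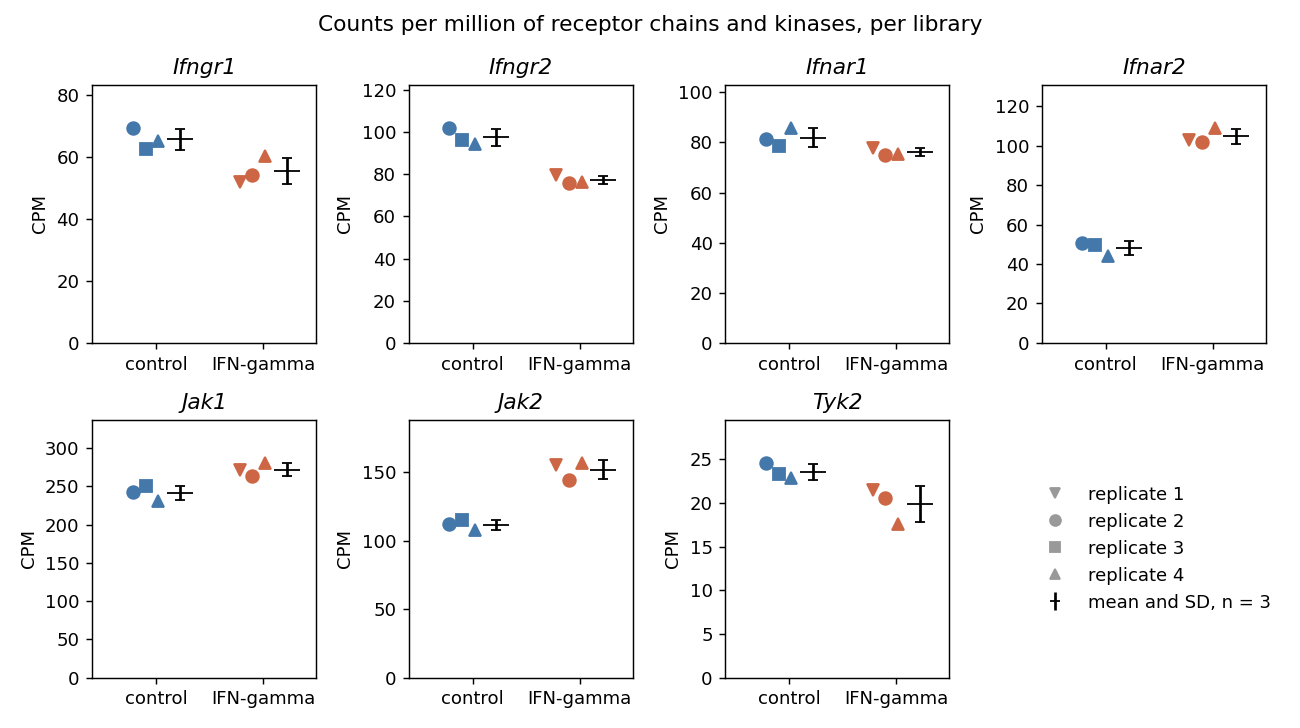
CPM (y axis, from 0) of each receptor chain and kinase in the 3 control libraries (blue) and the 3 libraries given interferon-gamma (orange), with symbols for the replicate number and bars for mean and SD. Ifnar2 went from 43.9 to 50.9 CPM in controls to 102 to 109 CPM after treatment, while Ifngr1, Ifngr2 and Tyk2 were lower in all 3 treated libraries.

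The plot of changes by gene sets these values beside each alternative. Directions were the same for each of the 7 genes under all 16 alternatives, which included the scalings, tests, filters, replicate block and left-out libraries. The median of all tested genes moved by at most 0.07 on the log2 scale between the scalings of the counts, against changes of 0.11 to 1.11 in size for the 7 genes. On the deposited TPM the median moved by -0.1, close in size to the Ifnar1 change of -0.11.

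**Figure D2:**
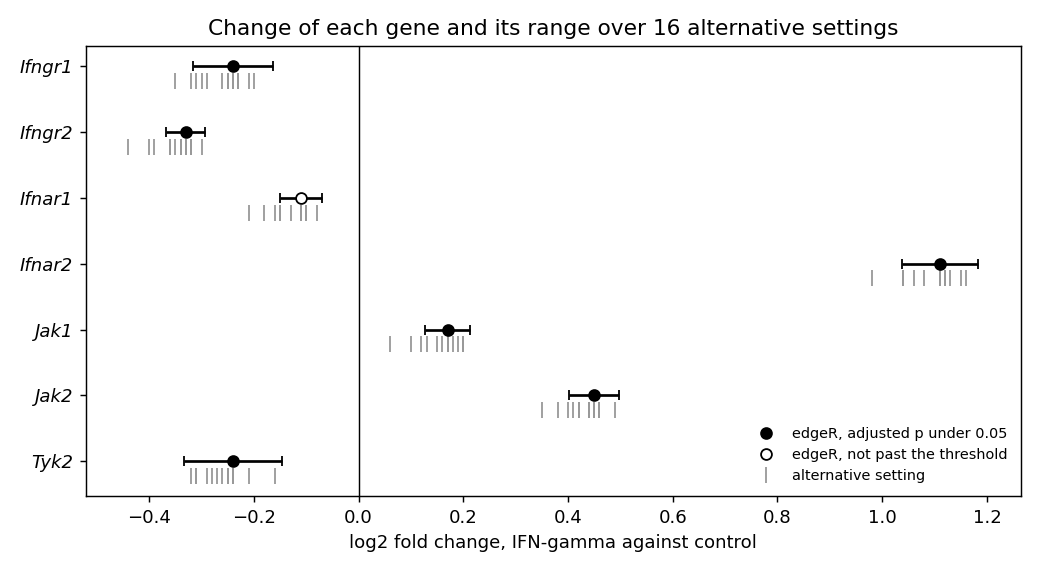
Log2 fold change of each gene (x axis, interferon-gamma against control) by edgeR with the standard error between replicates (points and bars, filled where the adjusted p was under 0.05) and under 16 alternative settings (grey ticks). Ifnar2 lies apart at 1.11, Jak2 at 0.45 and Jak1 at 0.17, and the other 4 genes lie between -0.33 and -0.11.

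Ratios between genes within a library do not depend on how libraries are scaled, and 6 were compared. The count ratio of Ifnar1 to Ifnar2 was 1.6, 1.58 and 1.95 in controls and 0.758, 0.739 and 0.692 in treated libraries. Reads of Ifnar1 thus outnumbered those of Ifnar2 in every control library and were fewer in every treated library. The log2 change of that ratio was -1.22 ± 0.107 (SE, two-sided exact permutation p = 0.1, adjusted p = 0.12 over the 6 ratios). A p of 0.1 is the smallest that 3 libraries against 3 allow, so no ratio could pass 0.05.

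The type II chains kept closer to each other. The Ifngr1 to Ifngr2 ratio was 0.684, 0.652 and 0.69 in controls and 0.655, 0.714 and 0.788 in treated libraries, which overlap (log2 change 0.09 ± 0.081, exact permutation p = 0.4, adjusted p = 0.4). Ifngr2 to Ifnar1, a chain of each receptor, went from 1.25, 1.22 and 1.1 to 1.02, 1.01 and 1.02 (log2 -0.23 ± 0.056, exact permutation p = 0.1, adjusted p = 0.12). That ratio was lower in every treated library than in any control library, at the smallest p the design can give.

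Among the kinases, Jak1 to Jak2 went from 2.18, 2.18 and 2.15 to 1.75, 1.83 and 1.79 (log2 -0.28 ± 0.018). The Jak2 to Tyk2 ratio went from 4.54, 4.92 and 4.73 to 7.21, 6.97 and 8.94 (log2 0.70 ± 0.117), and Jak1 to Tyk2 from 9.88, 10.7 and 10.2 to 12.7, 12.7 and 16 (log2 0.42 ± 0.116). Each of these 3 ratios separated the groups without overlap (exact permutation p = 0.1, adjusted p = 0.12). Relative to Jak1, treated libraries held more Jak2 reads and fewer Tyk2 reads.

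**Figure D3:**
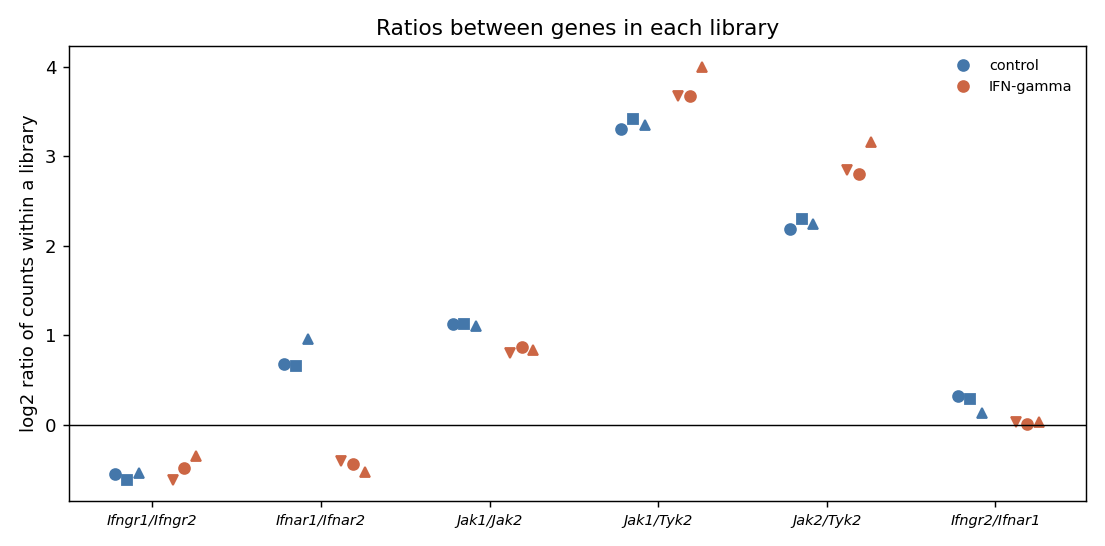
Log2 ratio of counts between pairs of genes within each library (y axis), for control (blue) and interferon-gamma libraries (orange), with the same replicate symbols as in the plot of CPM by library. The Ifnar1/Ifnar2 ratio lies above 0 in all controls and below 0 in all treated libraries, while Ifngr1/Ifngr2 overlaps between groups.

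Levels can be ordered between genes only per unit of length. On the deposited TPM scale, counts scaled by transcript length and library, controls ran from Ifngr2 (87.3 ± 0.949 TPM, SD, n = 3) through Jak1 (81.8 ± 4.98), Ifnar2 (61.9 ± 4.74), Ifngr1 (58.7 ± 1.27), Jak2 (40.1 ± 2.77) and Ifnar1 (19.9 ± 1.17) to Tyk2 (8.72 ± 0.125). Between libraries the control values of Ifngr2 and Jak1 overlapped, as did those of Ifnar2 and Ifngr1. Within each control library Ifngr2 was above Jak1, though only by 88.15 against 87.35 TPM in replicate 3. Ifnar2 was above Ifngr1 in control replicates 2 and 3 and below it in replicate 4, so that pair had no fixed order. After interferon-gamma the TPM order was Ifnar2 (123 ± 3.2), Jak1 (85.4 ± 4.26), Ifngr2 (64.3 ± 3.29), Jak2 (51.3 ± 3.26), Ifngr1 (45.9 ± 2.84), Ifnar1 (17.1 ± 0.829) and Tyk2 (6.84 ± 0.925). Of these neighbours in the treated order, only Jak2 and Ifngr1 overlapped between libraries, and Jak2 was above Ifngr1 within each treated library. By group means Ifnar2 moved from the third place to the highest, and Tyk2 was the lowest of the 7 in every library.

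These levels rest on the lengths the authors' program assigned, which can be read back from the deposited counts and FPKM. The implied length was 1221 to 1311 bases for Ifnar2 over the 6 libraries. That is above the 1099 bases of the short RefSeq-matched transcript and under the 3047 bases of the longest RefSeq-matched transcript. In mice a short alternative transcript of Ifnar2 is known to encode a soluble receptor. Counts per gene do not give the share of each transcript, which was not tested. The mean implied length of Ifnar2 was 1276 bases in controls and 1287 after treatment, and the groups overlapped. Ifnar1 was given 6729 to 6744 bases against 3909 in the annotation, and Ifngr2 1821 to 1835 against 3708. For Ifngr1, Jak1, Jak2 and Tyk2 the annotated length was 1.01 to 1.15 times the implied mean.

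In CPM on total counts per kilobase of the longest RefSeq-matched transcript, an alternative chosen after the values were seen, the order changed. Ifnar2 was then at 16.2 ± 1.14 in controls, the sixth of 7, and at 33.4 ± 1.16 after treatment, second to Jak1 at 54.1 ± 1.81. On that scale Ifnar1 was above Ifnar2 in controls (21.5 ± 1.06) and below it after treatment (19 ± 0.492), and Ifngr1 (31.9 ± 1.48) was above Ifngr2 (26.9 ± 0.797) in controls. The order of the chains within a receptor thus depended on the length used. After treatment Ifnar2 was above Ifngr1, Ifngr2 and Jak2 on both scales, and Tyk2 was the lowest on both.

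Jak3, the remaining member of the kinase family, is used by receptors that share the common gamma chain. It rose from 4.72 to 8.5 CPM (log2 0.85 ± 0.084, adjusted p = 5.53e-06). Of the summed TPM of the 4 kinases, Jak1 held 61.4% to 61.7% in controls and 57.3% to 58.6% after treatment, and Jak2 29.9% to 30.5% and 34.3% to 35.1%. Tyk2 held 6.26% to 6.87% and 3.92% to 5.08%, and Jak3 1.49% to 1.93% and 2.38% to 2.67%. Jak1 remained the most abundant kinase in every library.

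Ifnar2, Ifnar1 and Ifngr2 lie within 191 kb on chromosome 16, with Il10rb between Ifnar2 and Ifnar1. Il10rb encodes a chain shared by the receptors for interleukin-10, interleukin-22 and type III interferon. It begins 0.6 kb after the end of Ifnar2, and its level fell, with control and treated means of 31.2 ± 0.691 and 27.4 ± 1.74 CPM (SD; log2 -0.19, adjusted p = 0.0359). That call was lost with DESeq2 (adjusted p = 0.0728), with a replicate block (0.0545), and without control replicate 3 (0.0663), control replicate 4 (0.0908) or treated replicate 2 (0.212). Ifnar2 was thus the only gene called as risen in a cluster of 4 receptor genes, and the gene next to it was lower. The annotation also holds Gm21970, whose span, introns included, shares 13869 bases with that of Ifnar2 on the same strand. It has no row in the tables analysed here. Reads in any exon shared by Gm21970 and Ifnar2 cannot be told apart, even by strand.

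Further along the cluster, Gart, a purine synthesis enzyme, fell slightly (167 to 150 CPM, log2 -0.15, adjusted p = 0.0195), as did Son, an RNA-binding splicing cofactor (347 to 314 CPM, log2 -0.14, adjusted p = 0.0343). Both calls were lost with a replicate block (adjusted p = 0.166 and 0.056) and without control replicate 3 (0.0771 and 0.0616) or treated replicate 2 (0.0644 and 0.135). The Son call was also lost without control replicate 4 (0.15). The other tested neighbours, Tmem50b (log2 -0.06), Dnajc28 (0.09), Donson (0.08), Cryzl1 (0.18) and Itsn1 (-0.00), passed no threshold. Without control replicate 4, Cryzl1 was called as risen (log2 0.25, adjusted p = 0.0224).

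Jak2 lies 49 kb from Cd274, the gene of the inhibitory ligand PD-L1. Of 7 tested genes within 250 kb of Jak2, 3 rose, 1 fell and 3 passed no threshold, while of all tested genes 19.9% rose and 18.1% fell. Cd274 rose from 3.1 to 127 CPM (log2 5.35), Plgrkt, a plasminogen receptor gene, from 21.3 to 46.7 CPM (log2 1.13, adjusted p = 1.74e-10) and Insl6 from 1.11 to 1.73 CPM (log2 0.63, adjusted p = 0.0466). The annotated spans of Plgrkt and Cd274 share 5186 bases, so reads in that stretch cannot be told apart without strand and the Plgrkt value is uncertain. The Insl6 call rested on few reads and was lost in 9 of its alternatives, among them DESeq2 (adjusted p = 0.165). Rcl1, on the other side of Jak2, was at 115 CPM in controls and fell to 75.9 CPM (log2 -0.60, adjusted p = 5.38e-09), and Cdc37l1 (0.06), Ak3 (0.04) and Ric1 (0.09) passed no threshold.

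**Figure D4:**
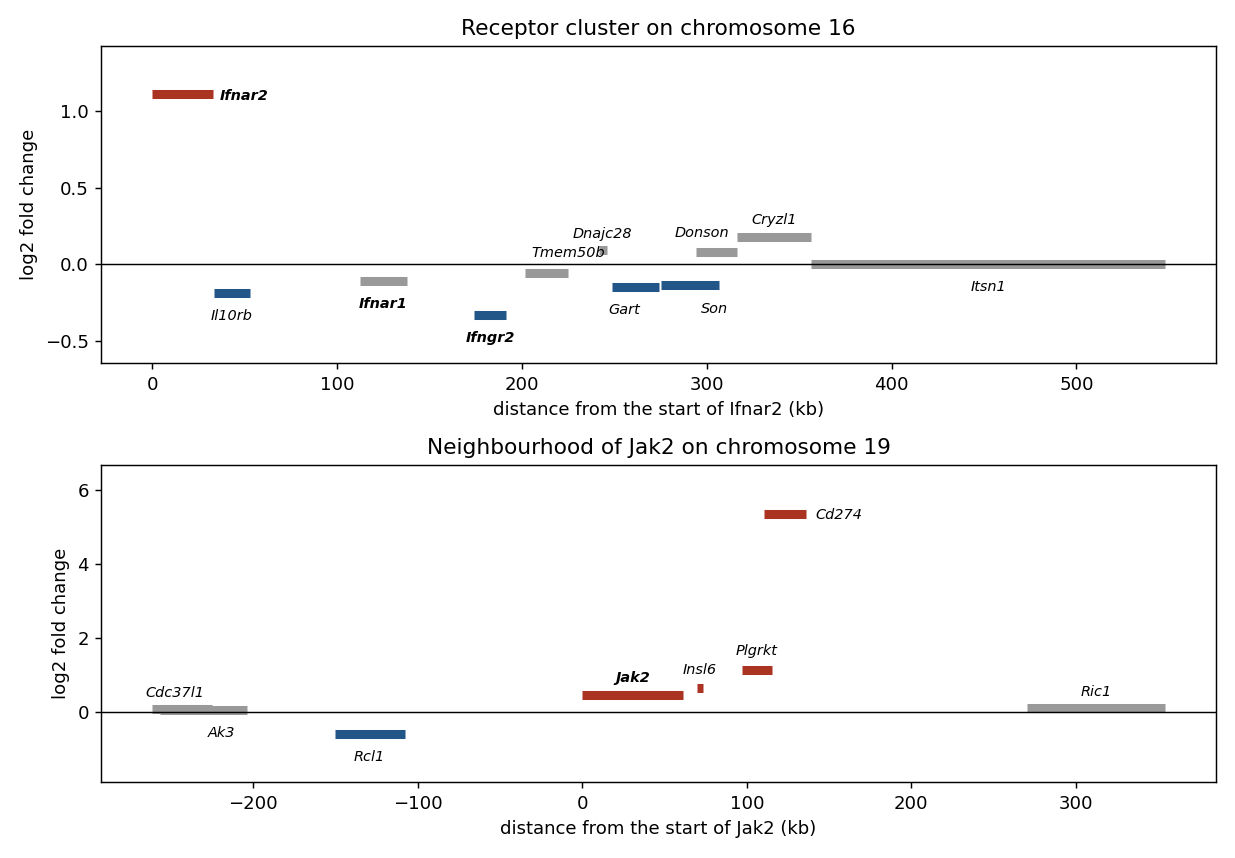
Log2 fold change (y axis) of tested genes near Ifnar2 and near Jak2, each drawn as a bar over its annotated span against the distance from the start of that gene in kb (x axis); red rose, blue fell and grey passed no threshold. Ifnar2 stands at 1.11 while Il10rb, Ifnar1 and Ifngr2 lie below 0, and near Jak2, at 0.45, Cd274 stands at 5.35 and Rcl1 at -0.60.

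Near Jak1, Ak4, an adenylate kinase of mitochondria, rose (7.96 to 12.2 CPM, log2 0.62, adjusted p = 7.8e-05) and Cachd1 had log2 -0.10 (adjusted p = 0.241). On total counts Cachd1 was called as fallen (log2 -0.17, adjusted p = 0.0404). Near Ifngr1, Pex7 was the single tested gene (log2 -0.03, adjusted p = 0.863). Of 19 tested genes within 250 kb of Tyk2, 4 rose, 3 fell and 12 passed no threshold. Shares over all tested genes were 19.9% risen and 18.1% fallen. Some of the 12 genes near Tyk2 past no threshold were called under other settings, such as Eif3g (log2 -0.14, adjusted p = 0.051) with upper-quartile factors (-0.20, 0.00729). Those that fell were Ppan (log2 -0.74), Pde4a (-0.30) and Kri1 (-0.23), and those that rose were the adhesion molecule Icam1 (1.05), Keap1 (0.28), Cdkn2d (0.24) and Slc44a2 (0.18). Icam1 had few reads, at 0.46 and 0.956 CPM, and its call was lost with DESeq2 (adjusted p = 0.0893), with a replicate block (0.129) and without control replicate 2 (0.0618), control replicate 3 (0.0518) or treated replicate 1 (0.0687). The Slc44a2 call was lost on total counts (0.0894) and without control replicate 4 (0.0662).

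Other receptor chains that signal through Janus kinases were counted for comparison. Of 38 listed, 10 had no row, 10 were too low to test and 18 were tested. Of the 18, 8 rose, 2 fell and 8 passed no threshold, with a median log2 fold change of 0.16. Over all tested genes 19.9% rose and 18.1% fell. Osmr, the oncostatin M receptor chain, rose from 10.1 to 59 CPM (log2 2.55 ± 0.061, adjusted p = 3.34e-17). Il13ra1, a chain for interleukin-4 and interleukin-13, rose from 82 to 294 CPM (log2 1.84 ± 0.08), and Il4ra from 53.5 to 70.5 CPM (log2 0.40). Il15ra, which presents interleukin-15, rose from 0.583 to 5.79 CPM (log2 3.30 ± 0.292). The Il15ra control libraries held only 12, 7 and 14 counts, and log2 ranged from 3.05 to 3.49 with single libraries left out. Besides Il10rb, the growth hormone receptor Ghr fell (27.4 to 19.5 CPM, log2 -0.49, adjusted p = 2.61e-05), named outside the rule. Ifnlr1, the specific chain of the type III interferon receptor, was too low to test, at 0.127 and 0.075 CPM on total counts.

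Among STAT factors and partners, a list that includes the kinase Jak3, 5 of 7 tested genes rose and none fell. The median log2 fold change of the list, 0.85, was that of Jak3 itself. The shares over all tested genes were 19.9% risen and 18.1% fallen. Stat2 rose from 14.9 to 201 CPM (log2 3.76), Stat3 from 63.5 to 351 CPM (log2 2.47) and Irf9, a DNA-binding partner of Stat2, from 8.12 to 64 CPM (log2 2.98 ± 0.08). Stat5b, named outside the rule, rose slightly (log2 0.17, adjusted p = 0.0224). The Stat5b call ended on total counts (adjusted p = 0.191) or upper-quartile factors (0.108), with a replicate block (0.0776), and without control replicate 2 (0.0652), control replicate 4 (0.0966) or treated replicate 1 (0.132). Stat5a (log2 0.13, adjusted p = 0.302) and Stat6 (log2 -0.01, adjusted p = 0.93) passed no threshold, and Stat4 was too low to test.

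Among regulators of the receptors and kinases, 11 of 25 tested rose, 2 fell and 12 passed no threshold, with a median log2 fold change of 0.13. Beside these counts, 19.9% of all tested genes rose and 18.1% fell. Socs3 rose from 22.9 to 187 CPM (log2 3.03 ± 0.041) and Socs1, which inhibits the kinases directly, from 12.8 to 103 CPM (log2 3.01 ± 0.092). Usp18, which binds IFNAR2 and restrains type I signalling, rose from 0.459 to 12.1 CPM (log2 4.70 ± 0.597, adjusted p = 1.36e-13). Its control libraries held only 11, 2 and 13 counts, and log2 ranged from 4.23 to 5.09 with single libraries left out. Prkd2, a kinase that promotes removal of IFNAR1 from the surface, rose from 10.7 to 19.2 CPM (log2 0.85). The 2 that fell, named outside the rule, were Sh2b3, an adaptor that restrains JAK2 (91.7 to 65 CPM, log2 -0.50, adjusted p = 1.59e-07), and Socs5 (log2 -0.18, adjusted p = 0.0122). The Socs5 call was lost with a replicate block (0.0637) and without control replicate 3 (0.0604) or treated replicate 2 (0.0889).

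**Figure D5:**
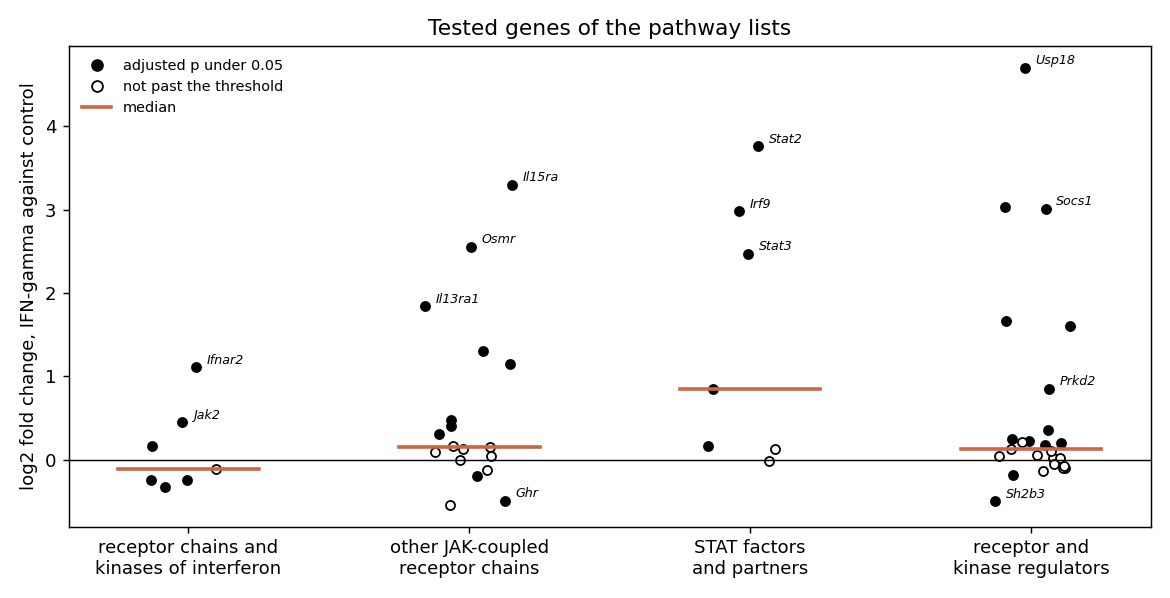
Log2 fold change (y axis) of every tested gene in 4 lists, filled where the adjusted p was under 0.05, with the median of each list as a line. The 7 receptor chains and kinases lie between -0.33 and 1.11, while the lists of STAT factors and regulators reach 3.76 and 4.70.

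Of 11 interferon ligand genes listed, 8 including Ifng and Ifnb1 had no row, and the other 3, Ifna1, Ifne and Ifnz, had at most 2 counts in any library. A gene with no row has no value here, so its level cannot be given.

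For each called member the 2 genes of closest profile were found among 8833 tested genes with a mean of at least 10 CPM, by the Euclidean distance between mean-centred log2 CPM over the 6 libraries. For Ifnar2 these were Mtfr2 (distance 0.0727, log2 fold change 1.13) and Wrn (0.101, 1.14), and for Jak2 Vhl (0.0507, 0.43) and Ugdh (0.0588, 0.45). For Ifngr2 they were Plin2 (0.0273, -0.33) and Eno3 (0.0421, -0.33), and for Ifngr1 Coil (0.0643, -0.23) and Wdr45 (0.0644, -0.25). Jak1 was closest to Atg3 (0.0338, 0.19) and Mrps11 (0.0467, 0.20), and Tyk2 to Shf (0.0537, -0.23, not past the threshold) and Ddx54 (0.0627, -0.21). Shf was called as fallen with upper-quartile factors (adjusted p = 0.0287), on total counts (0.0195) and without treated replicate 1 (0.0494). No gene of the receptor, STAT or regulator lists was among these 12. With only 2 genes taken per member from 8833 candidates, that absence says little about those lists.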

How the data were processed

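Total RNA of 6 IEC 4.1 samples was read on a DNBSEQ sequencer, per the labels' protocols. Per the submitters' processing notes, tools and builds include HISAT, HISAT2, GRCm38.p6 and mm10, without roles; no source used here names the counting program. Estimated counts, TPM and FPKM per gene were deposited side by side, per the file headers; 6.8% to 7.37% of counts per library were not whole. Ifnar1 counts were not whole in 5 of 6 libraries. TPM values deposited by the authors gave levels, and FPKM deposited by the authors gave implied lengths (from the count, FPKM and library total).

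After rounding, edgeR 4.0.16 (R 4.3.3) tested the counts (filterByExpr with a minimum count of 10, TMM, glmQLFit with robust=TRUE, glmQLFTest). Benjamini-Hochberg adjustment ran over 11423 tested genes, and 3278 were left out; the threshold was 0.05. TMM factors were 0.9717 to 1.033. Standard errors come from the spread of replicate log2 CPM (prior count 2). The test was also run on simulated data with known fold changes, as a check of the code only. No result of that run is given, so it is no evidence for the scaling or for the small changes reported here. Ratios were tested by exact permutation.

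Alternatives were DESeq2 1.42.0, limma-voom (limma 3.58.1), other scalings and filters, robust=FALSE, a replicate block, left-out libraries and, added after the data were seen, limma on log2(TPM + 1) and annotated lengths. Coordinates and promoters are RefSeq GRCm38.p6, matched by gene identifier or symbol, and transcripts GENCODE M21 (GRCm38). The rule named the 7 genes, for each other list the 4 lowest adjusted p, coding neighbours within 250 kb and the 2 closest profiles. Members and lists were chosen with earlier results of these data known. Some listed genes are not reported here and were left out of their lists' counts. Python 3.11.15, numpy 2.4.6, pandas 2.3.3 and matplotlib 3.10.9 were used.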

Additional observations from a re-analysis of the deposited data

How the results depend on the processing

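Ifngr1, Ifngr2, Ifnar2 and Jak2 kept their direction and their side of the threshold under all 16 alternatives, and the exceptions for Ifnar1, Jak1 and Tyk2 stand beside their values above. Ranges over left-out libraries were 1851 to 2187 rises and 1710 to 2025 falls over all genes, 2 to 3 rises and 2 to 3 falls among the 7 genes, and 1 to 2 falls among the other receptor chains and among the regulators. Total-count scaling gave 3124 falls. DESeq2 gave 1 fall among the other receptor chains, as did the replicate block, which also gave 1 fall among the regulators. Replicate numbers 2 and 4 occur in both groups, but the labels do not say what a number marks. For that reason no pairing was taken as given. The correlation of deviations from the group means was 0.13 for the libraries numbered 2 and -0.09 for those numbered 4. Between control and treated libraries of unlike number it was -0.15 to 0.16. Numbers 1 and 3 occur in 1 group each, so the effect fitted with the block rests on libraries 2 and 4 of each group. With the block 2133 genes rose and 1793 fell, and no call among the 7 genes changed. Values that changed sign were all of genes past no threshold. With single libraries left out Pex7 ranged from -0.12 to 0.07, Dnajc28 from -0.09 to 0.19, Itsn1 from -0.05 to 0.07, Cdc37l1 from -0.02 to 0.12 and Stat6 from -0.04 to 0.03. Itsn1 was at 0.00 with limma-voom, Cdc37l1 at -0.01 on total counts, and Ak3 at -0.02 with upper-quartile scaling and -0.03 on total counts. The cause of these changes was not tested. Ratios kept their direction on deposited TPM and with each library left out.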

Other observations

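The deposited tables give Jak1 on the + strand, while its RefSeq promoter window on GRCm38.p6 is on the other strand; the other 6 genes had the same strand in both. In the deposited tables, 116 genes carried the KEGG term for JAK-STAT signalling, a list looked at after the values were seen. Of these, 92 were tested, 35 rose and 21 fell, with a median log2 fold change of 0.10. Over all tested genes 19.9% rose and 18.1% fell.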
